A study of Sus scrofa with 23 samples.

Results

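Duroc pig embryos fertilized in vivo (the IV-D group) were followed over the passage from 2 to 4 cells. The comparison sets 1 library of 4-cell embryos, collected at 48 h, against 1 library of 2-cell embryos, collected at 24 h, out of 23 libraries of oocytes and embryos in the series. Both columns were picked by their stage and group and by no measured value. The embryos came from Duroc sows after artificial insemination with semen of a single Duroc boar, were flushed from the reproductive tract after slaughter with buffered saline, and were chosen for normal shape. Pools of embryos of mixed sex made up each sample, and embryos of a stage came from a single sow, so stage and sow cannot be told apart. The zona pellucida was taken off before lysis. The comparison groups are clones made by nuclear transfer of ear fibroblasts from 1 Duroc boar (NT-D), the sire of the IV-D embryos, or 1 Laiwu boar (NT-LW), into in vitro matured oocytes of slaughterhouse ovaries. They were cultured in PZM3 medium, and each stage has 1 library here too. With 1 library a side no replicate error and no p-value exist, and the intervals given with folds cover the counting of fragments only.

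An early embryo runs at first on RNA and protein that the oocyte laid down, while its own chromosomes are nearly silent. These maternal transcripts are then removed in waves, and the embryo starts to transcribe its own genome, a handover known as the maternal-to-zygotic transition. In the pig, as background, the main onset of embryonic transcription falls around the 4-cell stage, later than in the mouse. A library made from polyadenylated RNA shows this handover as transcripts gained and lost, although a gain can also come from a longer poly(A) tail on RNA that was already there.

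Levels are given as FPKM, fragments counted per kilobase of a gene and corrected for library size. A gene counted as raised or lowered had to reach 1 FPKM in either library and to change by over 1 in log2(FPKM + 1). The table holds 8603 genes, named by its authors as differentially expressed, so shares below are shares of that choice and not of the genome. Of these, 7300 reached an FPKM of 1 in either library and were compared. The recovered depth was 22991067 fragments for the 2-cell and 15853337 for the 4-cell library, and the genes of the table took 82.8% and 84.8% of it. FPKM is a share of a library, so a change in the total RNA of an embryo is not seen in it. Markers of the egg and early embryo were present in both libraries, with a summed level over 10 genes of 7497 FPKM at the 2-cell and 1998 at the 4-cell stage. Most of that sum came from BTG4 and OOEP, both lowered. Of the 10 genes, 2 were raised, 3 lowered and 5 did neither, with a median difference of -0.05.

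From the 2-cell to the 4-cell stage far more transcripts were counted as gained than as lost. A gene under 1 FPKM at the 2-cell stage could be raised but not lowered, so a part of this excess is set by the rule. Of the 7300 genes, 2508 were raised (34.4%) and 897 were lowered (12.3%), while 3895 differed by 1 or less. The median difference over all compared genes was 0.46 on the log2(FPKM + 1) scale, so the typical gene stood higher in the 4-cell library. Dividing the 4-cell values by the median ratio of 1.196, a log2 shift of 0.26, left 2077 raised and 1180 lowered genes, and the share of raised among changed genes went from 73.7% to 63.8%. Gains were also larger than losses, with 213 genes raised by more than 4 and 10 lowered by more than 4.

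**Figure D1:**
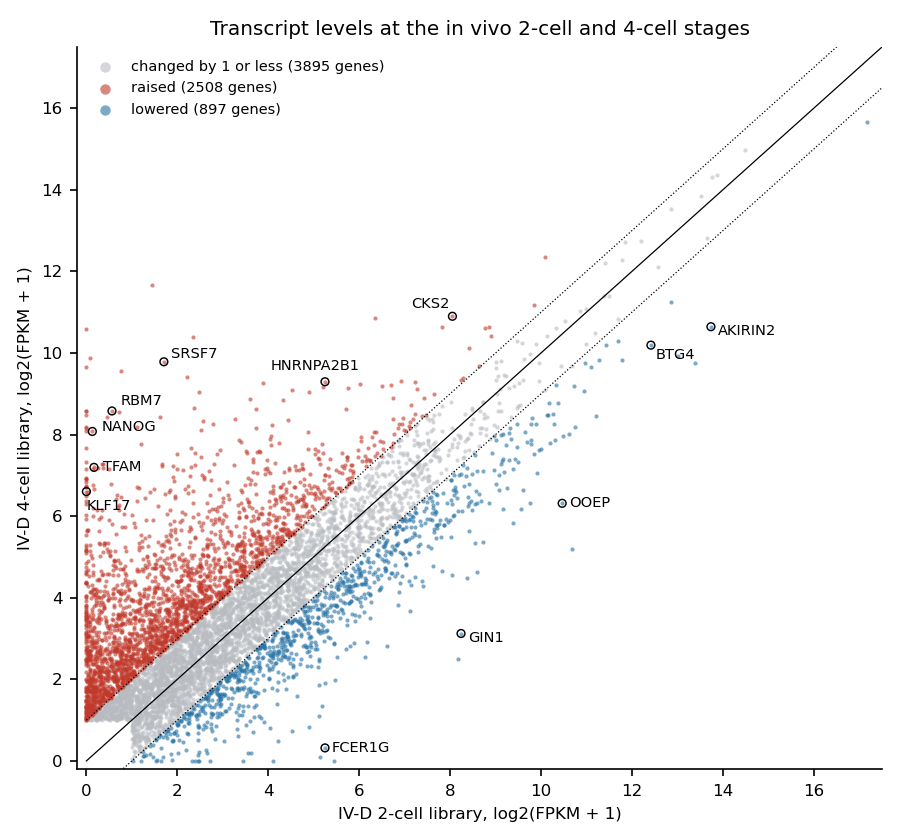
Level of each of the 7300 compared genes in the IV-D 2-cell library (horizontal axis) and the 4-cell library (vertical axis), both as log2(FPKM + 1), with 1 point a gene. Red points are the 2508 raised and blue points the 897 lowered genes, dotted lines mark a difference of 1, and the genes furthest above the diagonal were near 0 at the 2-cell stage.

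Of the neighbouring IV-D steps, the one before went the other way. Between the 1-cell and 2-cell libraries 442 genes were raised (6.59% of those compared) and 1652 lowered (24.6%). From the oocyte to the 1-cell stage 13.7% were raised and 7.64% lowered. After the 4-cell stage the changes were more even, with 35% raised and 28.1% lowered to the 8-cell stage, and 12.3% raised and 13.6% lowered from there to the morula. Each pair of neighbouring steps shares a library, so these shares are given side by side only.

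Gain and loss depended on the level a transcript had at the 2-cell stage. Of the raised genes, 992 came from under 1 FPKM and 1516 were already at 1 FPKM or more. The first class had a median of 4.61 FPKM at the 4-cell stage, and 263 of its genes reached 10 FPKM and 34 reached 100. No fragment was counted at the 2-cell stage for 115 of the raised genes. Loss was seldom complete, since 803 of the lowered genes stayed at 1 FPKM or more and 94 dropped under it. Of genes at 100 FPKM or more in the 2-cell library, 42.2% were lowered and 6.67% raised. Of genes at 10 to 100 FPKM the shares were 20.9% and 18.4%, and of genes at 1 to 10 FPKM 6.802% and 33.4%. The 1369 genes under 1 FPKM at the 2-cell stage were compared through their 4-cell level alone. Of them 72.5% were raised, and none could be lowered by the rule. The order of levels at the 2-cell stage enters the difference itself, so a part of this slope comes from how it is computed. The raised genes grew from 5.85% to 28.1% of the depth, and the lowered ones shrank from 31.95% to 9.21%.

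The 15 largest rises among named genes at 10 FPKM or more were led by RNA-processing factors and a pluripotency factor. SRSF7, an SR protein that binds pre-mRNA and steers splicing and export, went from 2.26 to 881 FPKM, a rise of 389.8-fold (95% counting interval 329.6 to 464). Its level in the oocyte and the 1-cell embryo had been 40.9 and 41.7 FPKM, so the 2-cell level was a low point and the 4-cell level lay far above all 3 earlier stages. RBM7, a subunit of the complex that delivers RNA to the nuclear exosome, went from 0.477 to 381 FPKM, a rise of 798-fold (95% counting interval 545 to 1223). RSRP1, an arginine and serine rich protein of the splicing machinery, went from 1.18 to 289 FPKM. In each of these 3 genes the 8-cell level was below the 4-cell one, at 300.2, 149 and 31.7 FPKM.

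TFAM, which packages and transcribes mitochondrial DNA, rose from 0.123 to 146 FPKM and held 133 FPKM at the 8-cell stage and 166 in the morula. SUPT4H1, a subunit of the elongation factor DSIF that rides with RNA polymerase II, rose from 0.198 to 144 FPKM. TAC1, the precursor of substance P, rose from 0.101 to 143 FPKM, and SLC31A1, the high-affinity copper importer, from 0.278 to 154 FPKM. These 4 genes were under 1 FPKM in the oocyte, 1-cell and 2-cell libraries, and over 100 FPKM in the 4-cell library. RNASE4, a secreted ribonuclease, rose from 0.293 to 154 FPKM and PHLDA2, an imprinted growth-restraining gene, from 0.281 to 144 FPKM. MPLKIP, TMCO2 and FUT9, the last a fucosyltransferase that makes the SSEA1 type of sugar epitope, had 0 fragments at the 2-cell stage and 121, 120.1 and 106 FPKM at the 4-cell stage. Against a floor of 3 fragments per library these are rises of 1290.2-fold, 503-fold and 954-fold. These folds depend on the floor and are not minima. The lower limits of their counting intervals were 1049-fold, 408-fold and 775-fold.

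The promoters of 3 of these genes show what sequence lies at such starts, namely of the 3 largest rises with a curated RefSeq transcript. Each runs from 120 bases before the start to 30 after it on the strand of the gene in Sscrofa11.1, from RefSeq. Capitals mark a match, on either strand, to GGGCGG, which is the core of the GC box, to the box named CCAAT or to the box named TATAAA.
RSRP1 (chr6:82854231-82854380, minus strand): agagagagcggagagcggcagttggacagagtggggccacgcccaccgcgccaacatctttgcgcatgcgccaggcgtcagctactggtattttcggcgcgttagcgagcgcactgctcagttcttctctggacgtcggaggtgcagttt
TFAM (chr14:92279702-92279851, minus strand): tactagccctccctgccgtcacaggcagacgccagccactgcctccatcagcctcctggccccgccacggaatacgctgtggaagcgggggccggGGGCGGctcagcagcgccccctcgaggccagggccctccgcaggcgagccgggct
SLC31A1 (chr1:253868269-253868418, plus strand): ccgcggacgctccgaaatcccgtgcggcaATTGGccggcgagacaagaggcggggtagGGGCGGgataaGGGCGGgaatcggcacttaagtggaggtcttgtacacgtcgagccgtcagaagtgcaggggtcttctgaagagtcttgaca
RSRP1 has 0 matches in this window, TFAM 1 and SLC31A1 3, so the letters in these windows differ although all 3 genes rose over 100-fold. The windows are not alike in place. That of RSRP1 lies at the start of its curated transcript, inside the annotated gene (82850947 to 82861578). Those of TFAM and SLC31A1 lie at the annotated gene starts.

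**Figure D2:**
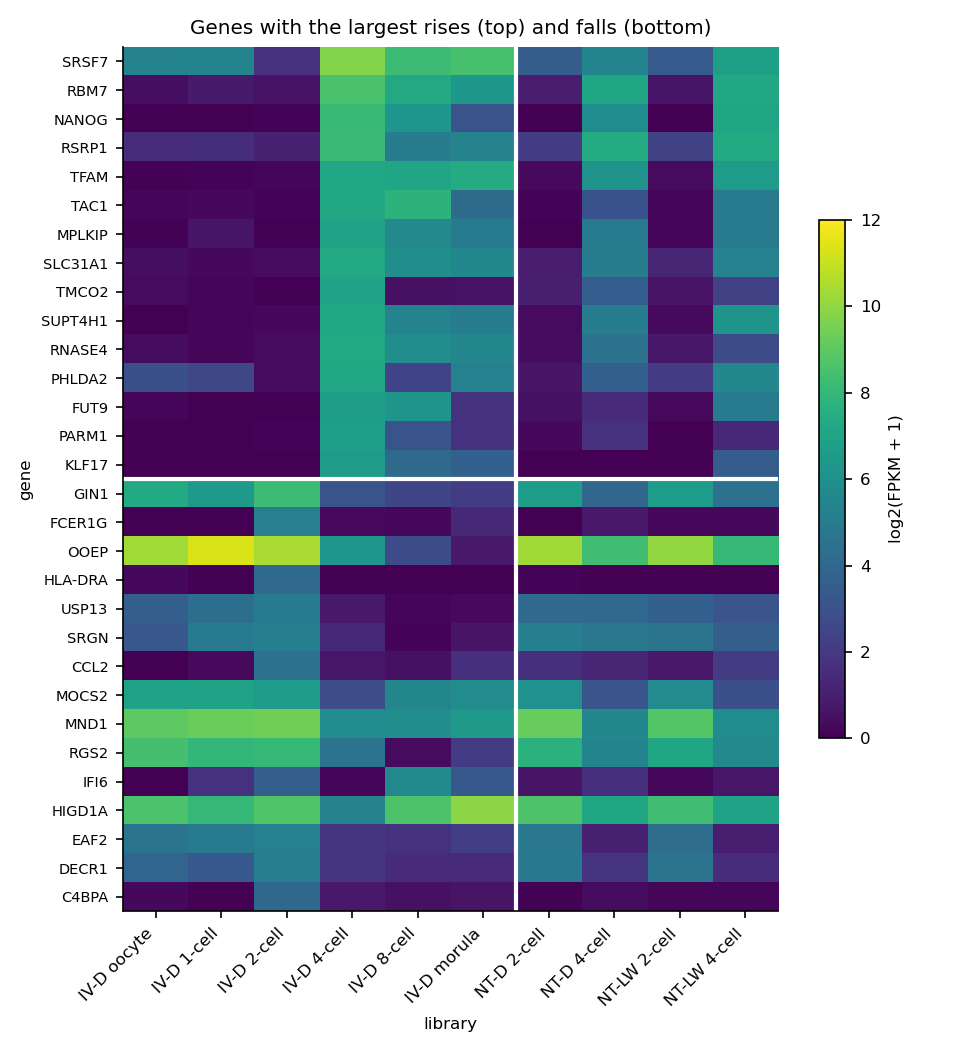
Level, as log2(FPKM + 1) by colour, of the 15 named genes with the largest rises (upper block) and the 15 with the largest falls (lower block) in 6 IV-D libraries and in the 2-cell and 4-cell libraries of both clone groups. The upper block turns from dark to bright at the IV-D 4-cell column, and FCER1G, HLA-DRA and C4BPA are bright in the IV-D 2-cell column and under 2 FPKM in the other 9.

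To see which kinds of transcript were gained and lost, 35 lists of genes with a shared role were counted. In 32 of them more members were raised than lowered, in 3 the counts were equal and in 7 no member was lowered. After median-ratio scaling 29 lists had more raised than lowered members, and 27 when the 1-cell library was taken as the start. A count of raised members is to be read against the 34.4% raised and 12.3% lowered of all compared genes. From the 1-cell start several balances were much narrower, with 17 raised and 12 lowered for the nuclear pore, 13 and 11 for the proteasome, 4 and 4 for glycolysis and 8 and 7 for meiotic and mitotic regulators.

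Transcription factors of pluripotency and the early embryo were among the genes gained. Of 25 compared members of this list, 15 were raised and 2 lowered, against 34.4% and 12.3% of all genes, with a median difference of 1.47 against 0.46. NANOG, a homeodomain factor of the inner cell mass and of stem cells, had 2 fragments at the 2-cell and 3901 at the 4-cell stage, 0.0951 to 269 FPKM, a rise of 2829-fold (95% counting interval 783 to 23366). It was at 0 in the oocyte and 1-cell libraries and at 78.1 FPKM at the 8-cell stage. KLF17, a Krüppel-like factor of early embryos, had 0 fragments at the oocyte, 1-cell and 2-cell stages and reached 96.2 FPKM. Against the floor of 3 fragments this is a rise of 1441-fold, and the lower limit of its counting interval was 1171-fold. KLF4, a related factor, was present before and rose from 2.16 to 34.6 FPKM. MYC, which drives growth and ribosome production, rose from 0.03201 to 49.8 FPKM on 1 and 1073 fragments, a ratio of 1556 (95% counting interval 279 to 61519), and stood at 3.76 FPKM at the 8-cell stage.

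DPPA2, a chromatin-bound factor of early embryonic genes, rose from 1.44 to 85.9 FPKM and went on to 271 FPKM at the 8-cell stage. BMP4, a secreted signal of the TGF-beta family, rose from 2.403 to 30.5 FPKM and was back at 3.14 FPKM at the 8-cell stage. HMX2 and MYT1L, factors known from the inner ear and from neurons, and VAV1, a signalling protein of blood cells, showed the same brief course at low levels. They went from 0, 0.00594 and 0.219 FPKM to 10.2, 5.71 and 6.97 FPKM and then to 0.0668, 0.359 and 0.261 FPKM. Both members lowered were abundant before. ID3, an inhibitor of helix-loop-helix factors, fell from 499 to 247 FPKM and DPPA5, an RNA-binding protein of germ and stem cells, from 1128 to 355 FPKM.

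Genes of the immediate-early kind, which cells switch on within minutes of a stimulus without new protein, were also gained. Of 24 members with values, 14 reached 1 FPKM in either library and were compared. Of those compared, 10 were raised and 0 lowered, with a median difference of 2.40. From the 1-cell start 7 were raised and 2 lowered. Members under 1 FPKM at the 2-cell stage, such as KLF10, MCL1 and BTG1, could be raised but not lowered. A part of the 2-cell to 4-cell count and median is thus set by the rule. BTG3, an anti-proliferative cofactor of deadenylation, rose from 1.09 to 52.6 FPKM. KLF10, a target of TGF-beta signals, rose from 0.113 to 22.5 FPKM, the survival factor MCL1 from 0.483 to 15.1 FPKM and BTG1 from 0.779 to 16.3 FPKM. Low levels were common in this list, and JUN, at 1.01 to 1.78 FPKM, and EGR1, at 0.531 to 0.994 FPKM, differed by less than 1 on the log2 scale.

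The machinery of transcription was raised unevenly. Of 33 elongation and pausing factors compared, 25 were raised and 0 lowered, with a median difference of 1.81, and 1 was lowered after median-ratio scaling. EAF2, an elongation-associated factor that fell from 37.2 to 2.77 FPKM, is not on this list. Beside SUPT4H1 they included ELOA, the elongin subunit, from 0.3805 to 33.7 FPKM, ELL2, which suppresses pausing, from 0.829 to 34.4 FPKM, and RTF1, of the PAF complex, from 3.87 to 52.6 FPKM. The list for RNA polymerase II and its general factors also held TAF1A and TAF1D, of the polymerase I selectivity factor. Of its 38 compared members, 17 were raised and 5 lowered, and 13 raised and 8 lowered from the 1-cell start. POLR2B, a catalytic-core subunit of RNA polymerase II, rose from 0.236 to 31.7 FPKM. TAF9, TAF2 and TAF12, of the general factor TFIID and related complexes, fell from 795 to 268, 50.9 to 13.7 and 130.1 to 40.97 FPKM. TAF1A fell from 33.2 to 3.95 FPKM, while TAF1D rose from 4.22 to 43.9 FPKM. For RNA polymerases I and III the counts were 11 raised and 1 lowered of 23, and for Mediator, the bridge between activators and the polymerase, 8 and 2 of 22, which is near the share of all genes.

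Among RNA-binding proteins that act on new transcripts, members were raised far more often than lowered. SR proteins and their kinases, which mark exons, had 21 raised and 0 lowered of 32, with a median difference of 1.59. The hnRNP proteins, which coat nascent RNA, had 23 raised and 0 lowered of 32, with a median of 1.70. HNRNPA2B1 was abundant already and rose from 37.003 to 627 FPKM, and SRSF6 and SRSF2 rose from 0.998 to 64.1 and 2.85 to 86.3 FPKM. Among the RBM proteins 16 of 26 were raised and 2 lowered, and among factors of 3-prime end processing and the Integrator complex 17 of 27 were raised and 0 lowered. The members that did neither numbered 11, 9, 8 and 10 in these 4 lists, and from the 1-cell start 2, 4, 5 and 4 were lowered. CLP1, of the cleavage complex, rose from 0.614 to 74.1 FPKM and CSTF3 from 5.73 to 116 FPKM.

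The core of the spliceosome was split. Of 69 members 31 were raised and 11 lowered (22 raised and 17 lowered from the 1-cell start), with a median difference of 0.80. The helicase DHX15, the SF3B subunit SF3B4, SYF2 and PRPF38A rose, the last from 22.1 to 546 FPKM. The members lowered were LSM3, LSM5, GEMIN2, SNRPF, SNRPB2, SNRNP27, SNRPE, GEMIN6, SNRPD1, CWC27 and SNRPN, while SNRPD2, GEMIN7, GEMIN8 and GEMIN5 were raised and LSM2, LSM4, LSM6, LSM7 and LSM8 did neither. LSM3 and LSM5, of the ring on U6 RNA, fell from 255 to 58.5 and 95.1 to 24.6 FPKM. SNRPF, of the Sm ring, fell from 40.7 to 13.2 FPKM, and GEMIN2, of the complex that loads that ring, from 6.36 to 1.26 FPKM. LSM5 and GEMIN2 stood higher again at the 8-cell stage, at 348 and 83.1 FPKM.

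**Figure D3:**
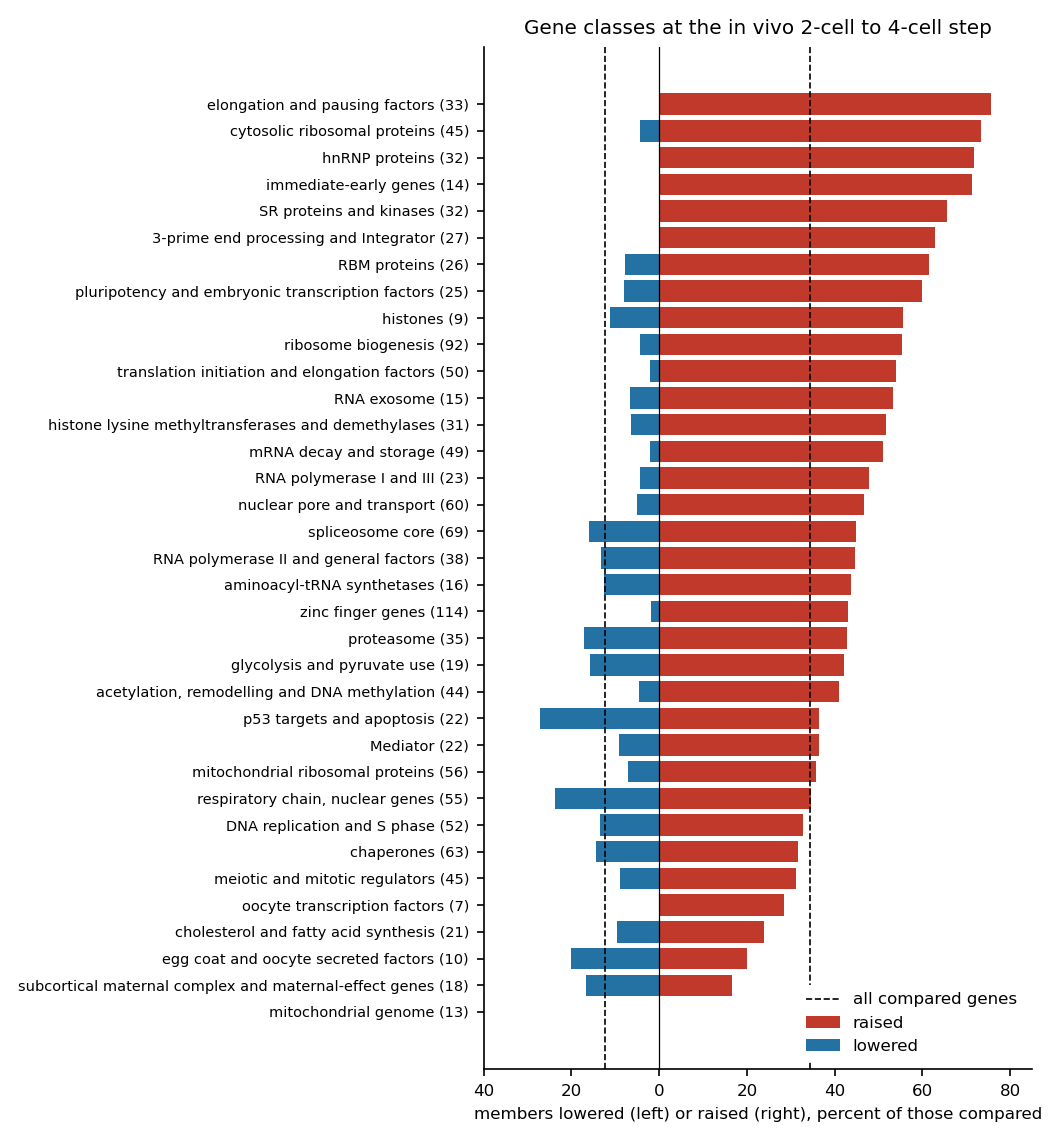
Share of compared members raised (red, to the right) and lowered (blue, to the left) in 35 gene lists, in percent, with the number compared in brackets and dashed lines at the shares of all compared genes, 34.4% raised and 12.3% lowered. Elongation factors, ribosomal proteins and hnRNP proteins lead, and the egg and maternal-effect lists stand under the dashed line for raised genes.

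Many transcripts for making ribosomes were raised. Of 45 cytosolic ribosomal protein genes 33 were raised and 2 lowered, with a median difference of 2.35. RPS13 rose from 4.77 to 277 FPKM, RPL27 from 12.3 to 395 FPKM, RPS16 from 18.9 to 463 FPKM and RPLP2 from 1.9998 to 75.4 FPKM. All 4 stood higher still at the 8-cell stage, at 1235, 1293, 1207 and 279 FPKM. The members lowered were RPS24, from 286 to 69.05 FPKM, and RPL26L1, from 1267 to 231 FPKM, both at over 200 FPKM in the oocyte and 1-cell libraries. Ribosomal protein genes have many processed copies in mammalian genomes, so reads could have been split between a gene and its copies. In the list of ribosome biogenesis 51 of 92 were raised and 4 lowered, and 41 raised and 11 lowered from the 1-cell start. FBL, the methyltransferase of box C/D particles, rose from 0.455 to 109 FPKM and PNO1, an assembly factor of the small subunit, from 0.0565 to 38.01 FPKM, while UTP23 fell from 513 to 110.1 FPKM.

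Of 50 translation factors 27 were raised and 1 lowered. DENR, which helps recycle ribosomes, rose from 0.655 to 76.9 FPKM, EIF6, which keeps the large subunit from joining too early, from 5.84 to 306 FPKM, and the release factor ETF1 from 0.551 to 29.1 FPKM. EIF4E3, a cap-binding protein, fell from 6.13 to 0.457 FPKM. Of 16 aminoacyl-tRNA synthetases 7 were raised and 2 lowered, and of 56 mitochondrial ribosomal proteins 20 and 4, the latter close to the shares of all genes. For the nuclear pore and transport list, whose ALYREF couples splicing to export and rose from 2.16 to 155 FPKM, the counts were 28 and 3 of 60. For the RNA exosome, which trims and degrades nuclear RNA, they were 8 and 1 of 15, with EXOSC10 up from 0.406 to 58.9 FPKM and EXOSC9 down from 49.2 to 19.8 FPKM.

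Chromatin genes were counted in 3 lists. Of 31 histone lysine methyltransferases, demethylases and their partners 16 were raised and 2 lowered, and 9 raised and 4 lowered from the 1-cell start. NSD1, which methylates histone H3, rose from 0.803 to 52.4 FPKM, SETD2, with the same target, from 0.306 to 16.96 FPKM, EED, a core part of a Polycomb complex, from 1.29 to 45.4 FPKM, and the histone demethylase KDM3A from 7.19 to 36.7 FPKM. DPY30, a shared subunit of several histone-methylating complexes, fell from 775 to 99.4 FPKM, and SMYD3 from 12.95 to 4.08 FPKM. Of 9 histone genes 5 were raised, among them the linker histone H1-3, from 5.51 to 136 FPKM, and the variant H2AZ1, from 52.6 to 563 FPKM. CENPA, the histone of centromeres, fell from 12.7 to 2.16 FPKM. Of 44 genes of acetylation, remodelling and DNA methylation 18 were raised and 2 lowered, and 11 raised and 9 lowered from the 1-cell start. TDG, the glycosylase that removes oxidized methylcytosine, rose from 0.218 to 59.96 FPKM, MBD4 fell from 7.11 to 0.401 FPKM, and DNMT1, the maintenance methyltransferase, differed little at 2029.9 to 2162 FPKM. Of 114 zinc finger genes 49 were raised and 2 lowered, and 45 raised and 15 lowered from the 1-cell start.

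The largest falls came from several kinds of transcript. GIN1, a gene derived from a transposon integrase, went from 302 to 7.71 FPKM, a fall of 39.1-fold (95% counting interval 35.8 to 42.8). OOEP, a subunit of the subcortical maternal complex that the egg builds and the early embryo needs, went from 1413 to 78.6 FPKM, a fall of 17.97-fold (95% counting interval 16.5 to 19.6), after 1284 FPKM in the oocyte and 2564 in the 1-cell embryo. MND1, a partner of meiotic recombinases, went from 669 to 56.2 FPKM, and RGS2, a brake on G-protein signals in the egg, from 263 to 22.6 FPKM. These 4 genes were abundant in the oocyte, 1-cell and 2-cell libraries, and their 8-cell levels were 4.74, 5.77, 57.6 and 0.279 FPKM. USP13, a deubiquitinase, fell from 28.7 to 0.776 FPKM, SRGN, a granule proteoglycan, from 35.5 to 1.55 FPKM, EAF2 as given above, and DECR1, a mitochondrial enzyme of fatty acid breakdown, from 33.7 to 2.62 FPKM. MOCS2, of molybdenum cofactor synthesis, HIGD1A, a mitochondrial inner-membrane protein, and IFI6, an interferon-induced protein, fell too, from 96.2 to 6.06, 420.3 to 40.5 and 11.4 to 0.144 FPKM, and stood higher again at the 8-cell stage, at 44.7, 405 and 52.7 FPKM.

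The starts of 3 genes that fell are given in the same way, namely of the 3 largest falls with a curated RefSeq transcript and an oocyte level of 10 FPKM or more.
OOEP (chr1:53007848-53007997, minus strand): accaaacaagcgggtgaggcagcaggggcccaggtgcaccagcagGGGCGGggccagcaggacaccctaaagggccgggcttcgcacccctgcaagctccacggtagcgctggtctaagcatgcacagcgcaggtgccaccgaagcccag
MOCS2 (chr16:32462262-32462411, minus strand): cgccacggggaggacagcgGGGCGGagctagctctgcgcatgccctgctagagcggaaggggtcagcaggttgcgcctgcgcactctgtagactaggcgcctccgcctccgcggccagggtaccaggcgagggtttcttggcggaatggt
RGS2 (chr10:940054-940203, minus strand): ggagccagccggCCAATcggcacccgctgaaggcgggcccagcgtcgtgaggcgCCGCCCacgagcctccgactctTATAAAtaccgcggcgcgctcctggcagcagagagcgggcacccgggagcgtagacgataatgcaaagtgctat
OOEP and MOCS2 have 1 match each, to GGGCGG, and RGS2 has 3, with TATAAA among them. A match describes the letters and not a bound factor.

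Oocyte transcripts changed unevenly between these libraries. Of 18 genes of the subcortical maternal complex and other maternal-effect genes, 3 were raised, 3 lowered and 12 differed by 1 or less. Beside OOEP the members lowered were ZAR1, from 11.5 to 3.66 FPKM, and UCHL1, from 708 to 308 FPKM, while PADI6, a protein of the cytoplasmic lattices, stood higher, at 12.5 to 25.99 FPKM. After median-ratio scaling the counts were 1 raised and 4 lowered, and from the 1-cell start 2 raised and 5 lowered, with a median of -0.64. Of 10 egg coat and oocyte secreted factors 2 were raised and 2 lowered, and 1 and 2 after scaling. From the 1-cell start 1 was raised and 6 lowered, with a median of -1.02. OOSP2, a secreted oocyte protein, fell from 8216 to 969 FPKM, whereas the growth factors GDF9 and BMP15 stayed at 31.3 to 31.9 and 52.04 to 53.4 FPKM, and the egg coat protein ZP2 was at 36.1 to 45.4 FPKM. ZP4 of the same coat and MOS, the kinase that holds the egg at metaphase, stood higher in the 4-cell library, at 82.7 to 187 and 34.5 to 91.8 FPKM, but lower than at the 1-cell stage, where they had 220.2 and 173 FPKM. By the 8-cell stage ZP4 had 5.77, MOS 2.06, GDF9 1.701 and BMP15 2.02 FPKM, so these 4 fell at the later step. Of 7 oocyte transcription factors 2 were raised and 0 lowered.

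Of 49 genes of mRNA decay and storage 25 were raised and 1 lowered, but 11 raised and 8 lowered from the 1-cell start. The lowered gene was BTG4, an adaptor that brings the deadenylase to maternal mRNA, which fell from 5469 to 1169 FPKM and to 16.9 FPKM at the 8-cell stage. CNOT9, a subunit of the same CCR4-NOT deadenylase, rose from 0.245 to 62.03 FPKM, and the poly(A)-binding protein PABPC1 from 0.797 to 14.3 FPKM. AKIRIN2, a nuclear import factor named after its values were seen, fell from 13653 to 1599 FPKM on 401799 and 32443 fragments. An unnamed Ensembl gene, ENSSSCG00000000296, took 6.81% of all fragments at the 2-cell and 2.396% at the 4-cell stage, before dropping to 0.0254% in 8-cell embryos.

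In the housekeeping lists, gains and losses stood side by side. Of 55 nuclear genes of the respiratory chain 19 were raised and 13 lowered, and their median difference of -0.02 lay under that of all genes. COX4I1 and NDUFS8 rose from 7.05 to 58.96 and 0.505 to 27.1 FPKM, and COX7C and COX7A2L fell from 58.7 to 9.85 and 223 to 44.04 FPKM. After median-ratio scaling the direction of this list turned, with 16 raised and 20 lowered. None of the 13 genes of the mitochondrial genome was called, and their share of the depth was 8.24% at the 2-cell and 11.5% at the 4-cell stage. In the proteasome list PSMB4 and PSMB7 rose from 0.363 to 35.6 and 12.99 to 194 FPKM, and PSMA4 and PSMA1 fell from 189 to 36.1 and 247 to 56.9 FPKM, with 15 raised and 6 lowered of 35.

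Of 52 genes of DNA replication 17 were raised, such as ORC1 of the origin recognition complex, from 2.54 to 95.7 FPKM, and 7 lowered, such as RPA3, ORC6 and the licensing inhibitor GMNN, from 337 to 75.3, 553 to 155 and 383 to 138 FPKM. Of 45 meiotic and mitotic regulators 14 were raised and 4 lowered. CKS2, a small partner of cyclin-dependent kinases, rose from 264 to 1909 FPKM, while cyclin B1 (CCNB1) was at 517 to 643 FPKM and WEE2, a kinase of the egg, at 359.7 to 331 FPKM. Of 63 chaperones 20 were raised and 9 lowered, a balance that turned to 13 and 14 after median-ratio scaling. HSPA8, a constitutive heat shock protein, rose from 63.6 to 606 FPKM, and PFDN4, of prefoldin, fell from 341 to 49.05 FPKM. Of 22 p53 targets and apoptosis genes 8 were raised and 6 lowered, and 5 and 7 after scaling. BAD, which promotes cell death at mitochondria, rose from 0.104 to 72.1 FPKM and went on to 614 FPKM at the 8-cell stage, and the caspase CASP6 fell from 20.8 to 4.801 FPKM.

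Of 19 genes of glycolysis and pyruvate use 8 were raised and 3 lowered. Phosphoglycerate mutase (PGAM1) and hexokinase 2 (HK2) rose from 0.665 to 25.05 and 0.906 to 17.7 FPKM. LDHA and LDHC, subunits of lactate dehydrogenase, fell from 569 to 71.02 and 185 to 85.7 FPKM. LDHA had been at 23.1 FPKM in the oocyte and 39.98 in the 1-cell embryo, so its fall began from a peak of the 2-cell library. In cholesterol and fatty acid synthesis 5 of 21 were raised and 2 lowered, the latter MSMO1 and HSD17B7, both sterol enzymes, from 462 to 79.6 and 159.96 to 57.7 FPKM.

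Some losses were of transcripts that the earlier IV-D libraries and the clone 2-cell libraries had under 1 FPKM. Of the lowered genes, 23 had been under 1 FPKM in the oocyte and 1-cell libraries, and 19 of them were also under 1 FPKM in both clone 2-cell libraries. At the 4-cell stage 18 of the 19 were under 1 FPKM, and 7 were at 1 FPKM or more again in the 8-cell or morula library. Of the 11 with a symbol, FCER1G, HBB and AIF1 are on the marker list for leukocytes and red cells. FCER1G, a signalling chain of immune receptors, was at 0, 0, 37.01 and 0.247 FPKM in the oocyte, 1-cell, 2-cell and 4-cell libraries. HLA-DRA, which presents antigen, was at 0.195, 0, 16.1 and 0 FPKM, and beta-globin (HBB) at 0.0527, 0.135, 9.82 and 0 FPKM. Of others, named after their values were seen, the platelet chemokine PPBP was at 4.47 FPKM, S100A12 of granulocytes at 4.25 FPKM and the interferon-induced IFIT1 at 3.97 FPKM at the 2-cell stage, with 0 fragments each at the 4-cell stage. Of 23 names in a marker list for leukocytes and red cells 5 were in the table, of which 4 were lowered (FCER1G, HBB, AIF1 and CTSS) and LCP1, at 1.02 to 0.672 FPKM, was not. The summed level of the 5 was 55.5 FPKM in the IV-D 2-cell library and 2.59 to 4.75 in 9 others, namely the 5 further IV-D libraries up to the morula and the 4 clone libraries of these stages. The 19 genes took 0.0273% of the 2-cell depth, and 878 genes were lowered without them. Fewer cells of a type and less RNA per cell cannot be told apart in pooled embryos. Whether these transcripts came from such cells was not tested, nor was the part of such cells in the loss of other transcripts.

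Markers of the other cells that could come with an embryo were read in the same way. The 4 cumulus and granulosa markers in the table summed to 176 FPKM at the 2-cell and 77.9 at the 4-cell stage, nearly all from VCAN at 171 to 68.9 FPKM, while HAS2 rose from 0.0294 to 2.38 FPKM. The 3 markers of oviduct and uterine epithelium summed to 4.99 and 4.82 FPKM. The sperm list had 2 members, and its sum went from 186 to 88.001 FPKM, nearly all of it LDHC, which oocytes and both clone groups also held.

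Because the 2-cell library held the fewest genes at 1 FPKM or more of all 23 (5931, against 6534 at the 1-cell and 7055 at the 4-cell stage), the 4-cell level was also read against the 1-cell embryo. Of the 2508 raised genes, 1745 (69.6%) stood more than 1 above the 1-cell level too, 739 lay within 1 of it and 24 were below it. Of the raised genes 492 (19.6%) had fallen by over 1 between the 1-cell and 2-cell libraries, as had 20.8% of all compared genes. Of the 897 lowered genes, 643 (71.7%) were also below the 1-cell level and 244 within 1 of it. The raised and lowered genes were picked by the same 4-cell library, so a part of these shares is set by the choice. Measured from the 1-cell library itself, 2126 genes were raised (28.2%) and 1697 lowered (22.5%), a nearer balance. UBE2S, a ubiquitin-conjugating enzyme of mitotic exit, shows the difference, with 128, 12.03 and 109 FPKM at the 1-cell, 2-cell and 4-cell stages. In 641 of the raised genes (25.6%) the transcript was under 1 FPKM in all 3 earlier libraries.

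After the step, gained transcripts parted ways. At the 8-cell stage 740 of the raised genes were higher again by over 1, 1027 were within 1 of the 4-cell level and 741 were lower. These shares of 29.5%, 40.95% and 29.6% were close to those of all compared genes, 29.3%, 39.8% and 30.8%. The median of the raised genes was 1.78 FPKM at the 2-cell, 12.8 at the 4-cell, 13.3 at the 8-cell stage and 12.03 in the morula, a median over members that went both ways. Genes raised by over 4 had medians of 0.468, 76.9, 48.5 and 26.4 FPKM at these stages, and since they were chosen for a high 4-cell level, a part of that peak is set by the choice. TMCO2, at 120.1 FPKM in the 4-cell and 0.446 in the 8-cell library, and PARM1, at 107 and 7.75 FPKM, were of the brief kind, while RIMKLB, named after its values were seen, went on from 49.8 to 401 FPKM. Of the lowered genes 298 fell further, 332 stayed within 1 and 267 stood higher again by over 1 at the 8-cell stage. C11orf54 and DUSP12, named after their values were seen, were of this last kind, at 14.02, 0.944 and 67.9 and at 10.4, 0.847 and 16.1 FPKM.

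The same step in the clones showed fewer gains. In NT-D embryos 17.3% of compared genes were raised and 8.36% lowered, and in NT-LW embryos 16.5% and 19.9%. The clone 2-cell libraries held more genes at 1 FPKM or more, 6366 in NT-D and 6897 in NT-LW against 5931 in vivo. In the 4-cell libraries the numbers were 7126, 7218 and 7055. The starting library thus enters the count of gains, and its part was not tested. Of the 2508 genes raised in vivo, 1024 (40.8%) were also raised in NT-D and 998 (39.8%) in NT-LW, 770 were raised in all 3 groups and 1256 in neither clone group. Their median difference was 1.77 in vivo, 0.82 (NT-D) and 0.68 (NT-LW) in the clones. Among the 213 genes raised by over 4 in vivo, 196 were raised in NT-D and 201 in NT-LW, at medians of 3.05 and 3.54 against 4.93. Genes picked for a large value in one library tend to give a smaller value in another, so a part of this gap is set by the choice. Of the 897 genes lowered in vivo, 389 were lowered in NT-D and 418 in NT-LW, and 301 in all 3 groups.

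Single genes differed in how far the clones followed. RBM7 reached 131 FPKM in NT-D and 141 in NT-LW 4-cell embryos against 381 in vivo, and RSRP1 166 and 156 against 289. SRSF7 reached 41.7 and 113 FPKM against 881, and NANOG 56.4 and 130.4 against 269. KLF17 stayed at 0 FPKM in NT-D and reached 10.7 in NT-LW against 96.2 FPKM, and FUT9 1.702 and 30.9 against 106 FPKM. PARM1 was at 2.302 and 1.51 FPKM in the clone 4-cell libraries, where the in vivo library had 107. TDG went beyond the in vivo level of 59.96 FPKM, at 72.7 and 104 FPKM. Among the falls, MND1 came down to 56.2 FPKM in vivo, 48.1 in NT-D and 55.8 in NT-LW, whereas OOEP still had 323 and 258 FPKM in the clones against 78.6 in vivo, and USP13 16.1 and 7.93 against 0.776. With 1 library each, and clones cultured in vitro, group, culture, sex and oocyte source cannot be told apart in these gaps.

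**Figure D4:**
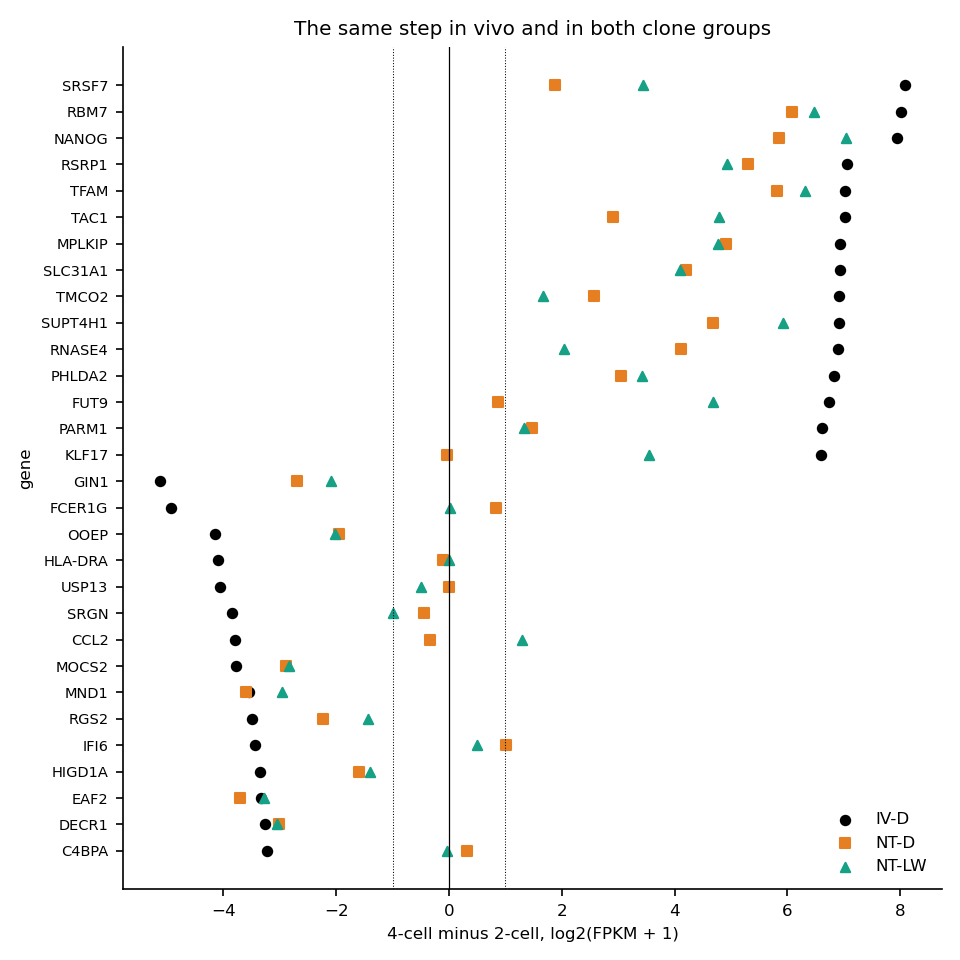
Difference between the 4-cell and the 2-cell library, in log2(FPKM + 1), of the 30 genes with the largest in vivo changes, in IV-D (circles), NT-D (squares) and NT-LW embryos (triangles), with dotted lines at 1 and -1. RBM7, NANOG and TFAM rose by over 5 in all 3 groups, KLF17 did not rise in NT-D, and FCER1G, HLA-DRA and C4BPA changed by under 1 in both clone groups.

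Large rises, and falls, were more frequent among short genes. FPKM divides by gene length, so for the same fragments a short gene has a higher level and is less damped by the added 1 FPKM. The part of level and scale in the shares below was not tested. Gene length, the exon length recovered from the FPKM steps and so known for every gene, had a median of 3094 bases in raised, 2237 in lowered and 3312 in all other compared genes, and of 1700 in genes raised by over 4. Under 1000 bases 10.6% of 578 genes were raised by over 4 and 24.9% were lowered. From 4000 to 8000 bases the shares were 1.33% and 7.11% of 2250 genes. The share raised by more than 1 varied less over these bins, from 32.6% to 38.2% up to 8000 bases, and was 52.7% of the 148 genes above that. For genes with a symbol, the distance from gene start to gene end in the RefSeq annotation was shorter for large gains too. The median was 11106 bases for genes raised by over 4, 31724 for raised, 33630 for lowered and 46994 for other genes. This annotation matched 92.3% of raised and 91.9% of lowered genes with a symbol, but only 76.95% and 73.02% of all of them and 60.1% of genes raised by over 4, so as a check on all changed genes it is void.

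**Figure D5:**
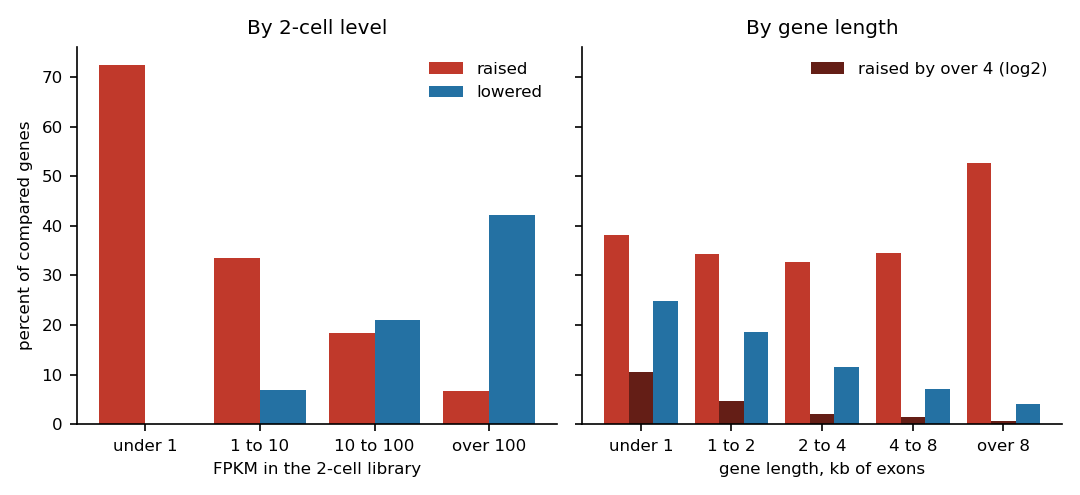
Percent of compared genes raised (red), raised by over 4 on the log2 scale (dark red, right panel only) and lowered (blue), by FPKM in the 2-cell library (left) and by gene length in kilobases of exon (right). The share lowered climbs with the 2-cell level, and the shares lowered and raised by over 4 decline with length.

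Beyond the 6 promoters printed above, promoter letters were counted in the same genes with a symbol, on both strands. Windows ran from 250 bases before to 50 after the annotated start of 1 transcript a gene, a curated one where available. The letters GGGCGG, the core of the GC box, were found in 63.1% of all compared genes (95% Wilson interval 61.9% to 64.4%), in 65.4% of raised (63.3% to 67.5%) and 56.9% of lowered genes (53.1% to 60.7%), and in 50.7% of all annotated promoters, so raised genes lay near the compared ones. CCAAT was in 38.7% of raised, 38.02% of lowered and 34.5% of all promoters, and TATAAA in 8.24%, 9.01% and 10.7%. TAATCC, the letters that homeodomain factors of the OTX kind read, was in 6.27%, 5.496% and 6.05%. CACGTG, the E-box of MYC, was in 9.64%, 8.24% and 7.603%, and ATGCAAAT, the octamer, in 0.777%, 0.458% and 1.33%. The intervals of raised and lowered genes overlapped for all of these letters but GGGCGG, and none of the strings contains another. The intervals of this paragraph treat genes as independent and measure no spread between embryos, so overlap or its lack is not a test. In the annotated 3-prime UTR, read after earlier values were seen, the share of A and U had a median of 64.8% in lowered (95% interval 63.8% to 65.3%), 58.6% in raised (58.1% to 59.3%) and 61.3% in other genes.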

How the data were processed

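Polyadenylated RNA of pooled embryos was amplified with SMART-Seq v4 and sequenced as paired-end reads. Per the submitters' processing notes, reads were aligned with HISAT2 2.0.4 to Sscrofa11.1 and counted with HTSeq 0.9.1, and DESeq is named too. The authors deposited 1 table of FPKM for 8603 genes, which its name calls differentially expressed, and how they were chosen is not given in the sources used here. Whole fragments were recovered from the FPKM steps (8603 of 8603 genes, relative tolerance 1e-06), which gave depth, gene length and exact 95% binomial counting intervals of ratios, against a floor of 3 fragments where a count was 0. PCR copies are not independent molecules, so these cover counting error only.

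Differences are on the log2(FPKM + 1) scale, which understates changes of low genes. No test between stages was possible with 1 library each. Named were the 15 largest rises and falls of genes with a symbol that reached 10 FPKM, the 4 largest of each direction in a list, and genes the study names for these stages. List members that differed by 1 or less, and others said so in place, were named after their values were seen. The members and lists were chosen with earlier results of these data known. Alternatives were a pseudocount of 0.1, an FPKM minimum of 5, a difference over 2, presence at 2 FPKM, rescaling, median-ratio scaling, the 1-cell start, genes with a symbol and a binomial test on fragments with adjusted p under 0.005. The scripts were tested on simulated data. The software was scipy 1.17.1, numpy 2.4.6, matplotlib 3.10.9, pandas 2.3.3 and Python 3.11.15.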

Additional observations from a re-analysis of the deposited data

Results flagged for a closer look

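In 6 genes with a symbol the step went one way in vivo and the other way in both clone groups. They either were counted as changed the opposite way in both clone groups, or were named by the rules above. The latter needed the opposite sign in both clone groups and an opposite call in at least 1. Of the 2508 raised genes, 91.35% were higher at the 4-cell stage in NT-D and 74.56% in NT-LW, so the 6 are a selection. Each group has 1 library a stage, so the difference between groups was not tested. Values are differences of log2(FPKM + 1) between the 4-cell and the 2-cell library. LDHA, the lactate dehydrogenase subunit whose 2-cell level stood out in vivo, changed by -2.99 in IV-D and by 1.18 (NT-D) and 0.79 (NT-LW) in the clones, with clone levels of 56.8 to 129.8 and 58.6 to 102 FPKM. IFI6 changed by -3.43 in IV-D and by 1.01 (NT-D) and 0.50 (NT-LW) in the clones. MOS changed by 1.39 in IV-D and by -0.03 (NT-D) and -2.65 (NT-LW) in the clones, the NT-D value being close to 0. PABPN1L, a poly(A)-binding protein of the egg, changed by 2.18 in IV-D and by -1.05 (NT-D) and -4.96 (NT-LW) in the clones. IFT43, of cilia transport, and IL12B, a cytokine subunit, were picked after their values were seen. IFT43 changed by 1.28 in IV-D and by -1.07 (NT-D) and -1.15 (NT-LW) in the clones, and IL12B by 1.08 in IV-D and by -1.50 (NT-D) and -1.60 (NT-LW) in the clones. ENSSSCG00000012100, which has no symbol, was opposite in both clone groups too. It changed by 1.70 in IV-D and by -1.82 (NT-D) and -1.77 (NT-LW) in the clones.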

How the results depend on the processing

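No paired analysis was possible because each stage has 1 library a group, and for the same reason no library could be left out. With a difference over 2 required, 1025 genes were raised and 213 lowered, and from the 1-cell start 1697 were lowered. The exact binomial test on fragments, with Benjamini-Hochberg adjusted p under 0.005, compares these libraries and not the stages. It raised 2977 and lowered 1113 genes, with 2508 and 896 shared. Its fold limit leaves out the added 1 FPKM, so genes changed by over 1 in log2(FPKM + 1) pass that limit too. As 85.6% of compared genes had an adjusted p under 0.005 in this test, the overlap was largely fixed in advance. With presence at 2 FPKM, 177 genes fell under it. With median-ratio scaling over the IV-D libraries, 78.7% of raised genes stood above and 20.8% within 1 of their 1-cell level, and 61.4% of lowered genes stood below and 37.3% within 1. In that scaling 22.6% of raised genes were higher and 36.1% lower in the 8-cell library, and 25.4% of lowered genes higher. Median lengths over genes with a symbol, added after seeing the data, were 3296.5 (raised), 2405 (lowered) and 3421 bases (others). Of the list balances, counted as raised minus lowered members, median-ratio scaling turned those of chaperones (-1), p53 targets (-2) and the respiratory chain (-4). The 1-cell start turned those of Mediator (-2), DNA replication (-5), the respiratory chain (-8), cholesterol synthesis (-3) and sperm markers (1). A reversal was read only for genes changed by over 1. Another pseudocount keeps the sign of a difference, and median-ratio scaling shifts it by at most 0.26. Counts of 0 for these settings were thus fixed in advance and are no sign of robustness. Of 261 named gene values, 0 reversed with a pseudocount of 0.1, 0 with median-ratio scaling and 17 with the 1-cell start. Raised genes that then stood lower were UBE2S -0.23, PABPN1L -1.06, PLK1 -0.0204, PKM -0.43, MOS -0.90, IFT43 -0.51, ZP4 -0.23, IL12B -0.0692 and PADI6 -0.95, and lowered genes that stood higher were LDHC 1.52, AIF1 0.18, HSD17B7 0.0841, ZMAT3 0.25, LDHA 0.81, C4BPA 0.80, CCL2 0.43 and FCER1G 0.32. Depth limits genes of few fragments most.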

Other observations

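The share of raised genes differed between chromosomes, among compared genes with a RefSeq position, and this spread was not tested. On chromosome 12 44.1% of 290 genes were raised (95% Wilson interval 38.5% to 49.9%) and 4.83% lowered, and on chromosome 9 23.5% of 328 were raised (19.2% to 28.4%) and 17.1% lowered. These were the highest and the lowest shares raised, picked after the values were seen. The Wilson intervals treat genes as independent and measure no spread between embryos. Median gene spans were 26107 and 44563 bases on chromosomes 12 and 9, and the part of gene size in the difference was not tested. The X chromosome, with 36.4% of 214 genes raised (30.3% to 43.1%), lay between. Of 1923 raised genes, 39.2% had the next compared gene on the chromosome raised too, against 33.4% of all genes with a position.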
